A study of Mus musculus with 26 samples.

Results

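The genes described here are 10 mouse genes that make, break down, import, store or export heme and iron: Alas1, Cpox, Fech, Hmox1, Tfrc, Slc11a2, Steap4, Fth1, Ftl1 and Slc40a1. They were taken by symbol, after the Ensembl identifiers of the count table had been mapped to mouse symbols. The choice was made with earlier results of these data known. They are 10 of the 50686 genes listed, and 10 of 10 passed the filter on low counts that left 17286 genes for testing.

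RNA was sequenced from supraclavicular brown adipose tissue (BAT), the heat-producing fat, of 26 male C57BL/6J mice. All mice were kept at thermoneutrality for 2 weeks, which the labels give as 30 °C and the study's methods as 29 °C, and one part of each genotype was then moved to 5 °C for 6 h. The mice were 12 to 16 weeks old per the methods. Values after ± are SDs over the mice of a group. The groups were control littermates at thermoneutrality (n = 7) and after cold (n = 5), and mice labelled as fat-specific Afadin knockouts (FAKO) at thermoneutrality (n = 7) and after cold (n = 7). Both alleles of the Afadin gene, Mllt4 or Afdn, are floxed in FAKO mice and Cre is driven by the Adiponectin promoter, so that cells of BAT other than adipocytes keep the gene.

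Heme is the iron-holding ring of the cytochromes of the respiratory chain, and brown adipocytes, which are packed with mitochondria, need much of it. Its synthesis starts and ends inside mitochondria, and heme oxygenase opens the ring again and sets the iron free. Iron enters the cell bound to transferrin, is reduced and moved into the cytosol, is stored in ferritin shells of heavy and light chains, and leaves through ferroportin. When iron is scarce, iron regulatory proteins bind short hairpins in the mRNAs, the iron-responsive elements. A hairpin in the 5′ UTR blocks translation, and hairpins in the 3′ UTR protect the mRNA from decay.

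Letters of such hairpins were searched in the UTRs of the 10 genes because ferritin, ferroportin and the transferrin receptor are among the textbook carriers and moved in different directions here. The pattern was a C, then NNNNN, then CAGTGN, then NNNNN, with all 5 pairs of the stem formed (G with T allowed), on the transcript strand of GENCODE M21 (GRCm38, the same assembly as mm10). It was found in a UTR of 4 of the 10 genes, in the 5′ UTR of Fth1, Ftl1 and Slc40a1 and at 4 places in the 3′ UTR of Tfrc. Of 21531 coding genes searched, 0.13% held it in a 5′ UTR and 0.585% in a 3′ UTR. These shares do not test the 10 genes, since carriers among them were known before the search. Capitals mark the bulged C and the loop, and each run of 29 bases is written 5′ to 3′ on the gene's strand. They lie at chr19:9982732-9982760 (plus strand) for Fth1, chr7:45459779-45459807 (minus strand) for Ftl1, chr1:45925465-45925493 (minus strand) for Slc40a1, and chr16:32631219-32631247, chr16:32631598-32631626, chr16:32631663-32631691 and chr16:32631710-32631738 (plus strand) for Tfrc in that order.
Fth1, 5′ UTR: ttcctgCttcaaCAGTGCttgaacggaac
Ftl1, 5′ UTR: gtcttgCttcaaCAGTGTttgaacggaac
Slc40a1, 5′ UTR: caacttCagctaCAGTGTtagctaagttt
Tfrc 1, 3′ UTR: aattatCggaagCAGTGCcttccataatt
Tfrc 2, 3′ UTR: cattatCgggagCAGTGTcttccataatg
Tfrc 3, 3′ UTR: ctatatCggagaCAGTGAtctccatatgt
Tfrc 4, 3′ UTR: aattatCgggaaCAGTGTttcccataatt
The runs of Fth1 and Ftl1 had the same base at 26 of 29 positions. For the other 6 genes, Slc11a2 among them, the pattern was not found, which says only that these letters are not in the annotated UTRs. A hairpin with an unpaired base in that stem would not match the pattern.

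Libraries held 12705969 to 25732258 counts in genes. Between 14.3% and 40.5% of them came from the mitochondrial genome, and thermoneutral control replicate 7 stood apart with 14.3% against 33.9% or more in the other libraries of its group. Summed markers of brown adipocytes were at 7747 to 9549 counts per 1000000 (CPM) at thermoneutrality and 25449 to 32168 CPM after cold. Ucp1, the uncoupling protein, carried most of that rise, at a mean of 985 CPM in warm and 16005 CPM in cold control mice. Of the 7 markers 3 rose in control mice (Ucp1, Fabp4 and Plin1), Adipoq (-0.77) and Lipe (-1.08) fell, and Pparg and Cidea did not pass. Afdn ranged from 151 to 214 CPM in control mice and from 153.5 to 231 CPM in mice labelled FAKO at thermoneutrality, which overlapped, and from 67.9 to 79.2 CPM against 53.3 to 65.3 CPM after cold, which did not. The label is therefore written as a label throughout. These are RNA counts. At the protein level, the paper reports a smaller rise of Afadin with cold in BAT of FAKO mice than of controls. Controls were littermates and mice were caged singly per the study's methods, but the labels do not say which mice shared a litter, and p-values measure the spread between these mice.

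Cold changed most of the genes in both genotypes. In control mice 2 of 10 were higher (Hmox1 and Ftl1), 7 were lower and Fth1 did not pass the test, by the quasi-likelihood test of edgeR with p-values adjusted after Benjamini and Hochberg over all genes tested and a threshold of 0.05. In that comparison 31.6% of all genes tested were called higher and 33.4% lower. In mice labelled FAKO 3 of 10 were higher (Hmox1, Ftl1 and Fth1), 6 were lower and Steap4 did not pass, against 33.7% of all genes called higher and 34.9% lower. The values of the warm and the cold mice did not overlap for 7 of 10 genes in control mice and for 7 of 10 in mice labelled FAKO, where 46.4% and 40.4% of all genes tested showed the same. The median log2 fold change of the 10 genes was -0.59 in control mice and -0.48 in mice labelled FAKO, beside -0.01 and -0.03 over all genes tested.

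**Figure D1:**
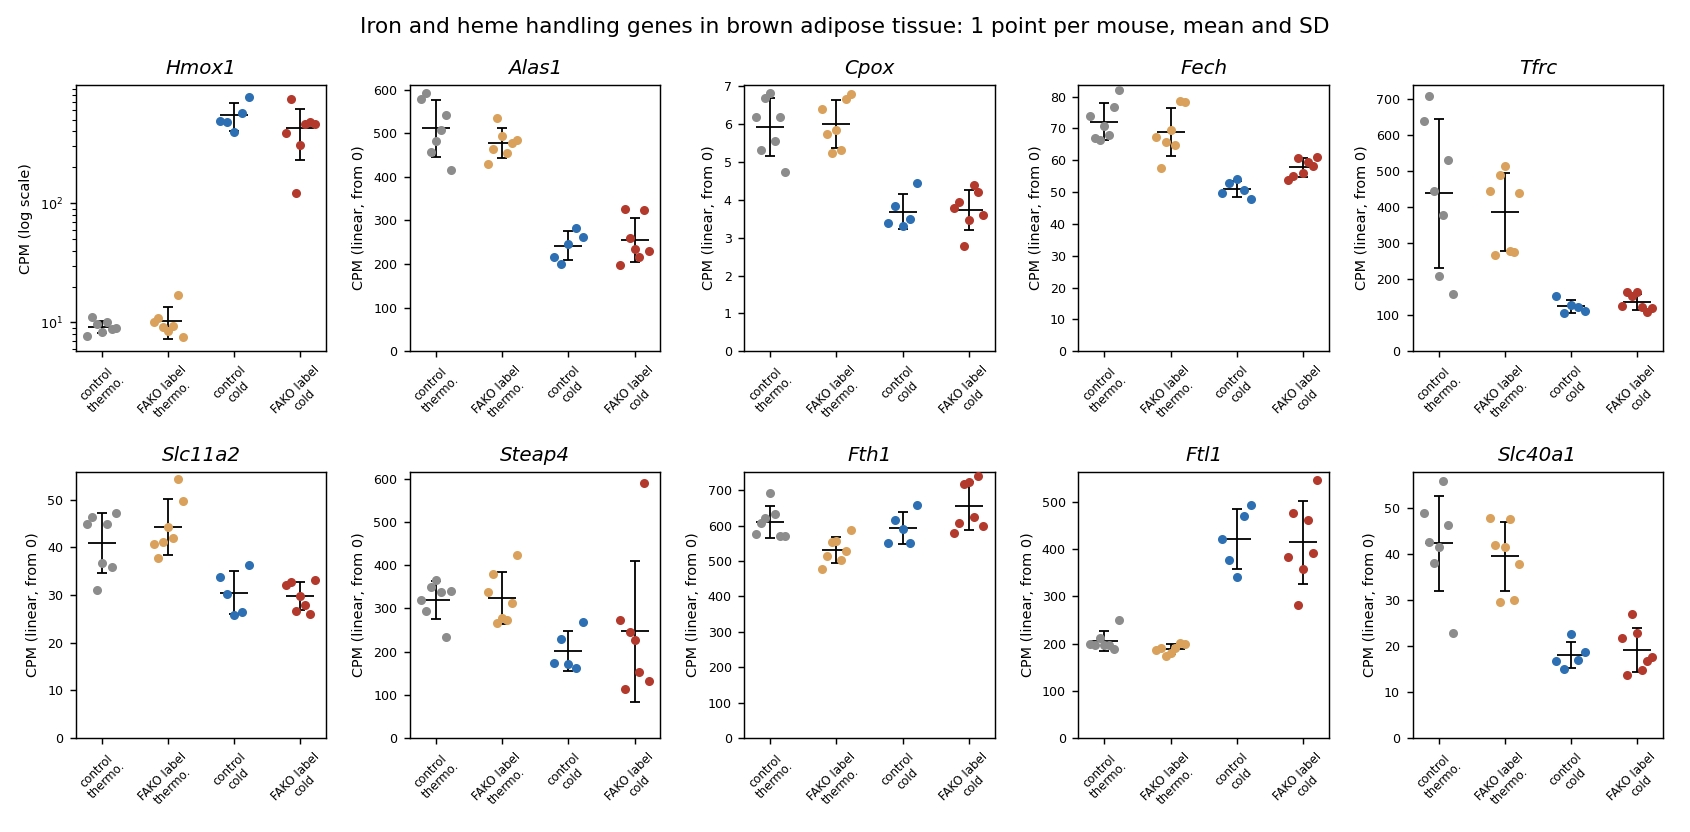
CPM of each of the 10 genes in every mouse (1 point per mouse), by genotype label and temperature, with the group mean and SD; Hmox1 is on a log axis and the other genes are on linear axes from 0. Hmox1 lies between 7.54 and 17.0 CPM at thermoneutrality and between 120.4 and 773 CPM after cold, while Alas1, Tfrc and Slc40a1 are lower in every cold mouse than in every warm mouse of the same genotype.

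Of the 10 genes Hmox1 changed most. It (ENSMUSG00000005413.8, chr8:75093621-75100589), which encodes the inducible heme oxygenase that opens heme to biliverdin, carbon monoxide and free iron, was low at thermoneutrality, at 7.73, 8.95 and 11.0 CPM for the lowest, median and highest control mouse. After cold the 5 control mice, here and below in the order of replicates 16, 17, 18, 19 and 21, had 491, 476, 397, 571 and 773 CPM. The lowest cold mouse was thus far above the highest warm one. The mean was 9.24 ± 1.12 CPM (SD, n = 7) before and 542 ± 143 CPM (SD, n = 5) after, a 58.6-fold rise (log2 fold change 5.87, SE 0.30, adjusted p = 3.515e-15, edgeR). Mice labelled FAKO ranged from 7.54 over 9.30 to 17.0 CPM at thermoneutrality and from 120.4 over 457 to 748 CPM after cold, again with no overlap. That rise was 40.6-fold (log2 fold change 5.34, SE 0.28, adjusted p = 6.106e-15, edgeR). Cold mice labelled FAKO spread widely: replicate 24 had 120.4 CPM and replicate 23 had 748 CPM. BAT is a mixture, and in bulk RNA fewer cells of a type and less RNA per cell cannot be told apart for any gene described here.

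Heme synthesis genes fell. Alas1 (ENSMUSG00000032786.16, chr9:106233455-106248654) encodes the 5-aminolevulinate synthase of non-erythroid cells, the first and rate-limiting step. It ranged from 415 over 508 to 591 CPM in warm control mice and was at 217, 201, 245, 284 and 261 CPM in the cold ones. No cold mouse reached the lowest warm one, and the change was -1.08 on the log2 scale (SE 0.12, adjusted p = 7.028e-09, edgeR). Mice labelled FAKO had 429.8 to 536 CPM (median 478) when warm and 199 to 327 CPM (median 235) when cold, a change of -0.90 on the log2 scale (SE 0.10, adjusted p = 2.063e-08, edgeR), also with no overlap.

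Cpox (ENSMUSG00000022742.5, chr16:58670292-58717636), whose product coproporphyrinogen oxidase works in the space between the mitochondrial membranes, had the fewest counts of the 10, 37 to 136 per library. It ranged from 4.73 over 6.18 to 6.83 CPM in warm control mice and had 3.38, 3.83, 3.30, 3.48 and 4.44 CPM after cold. The groups did not overlap, and the log2 fold change was -0.69 (SE 0.12, adjusted p = 1.291e-05, edgeR). Under the FAKO label Cpox was at 5.24 to 6.79 CPM when warm and 2.77 to 4.39 CPM when cold, which did not overlap, and the value was -0.68 (SE 0.11, adjusted p = 2.943e-06, edgeR).

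Fech (ENSMUSG00000024588.8) encodes ferrochelatase, which puts iron into the finished ring. Warm control mice had 66.4 to 82.0 CPM (median 70.8) and the cold ones 49.6, 52.8, 54.1, 50.8 and 47.9 CPM. The groups were apart, and the log2 fold change was -0.50 (SE 0.07, adjusted p = 5.239e-07, edgeR). Under the FAKO label the ranges of 57.5 to 78.7 CPM and 53.7 to 61.1 CPM overlapped, and the log2 fold change was -0.25 (SE 0.06, adjusted p = 0.000866, edgeR).

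Of the 3 uptake genes, Tfrc fell most. Tfrc (ENSMUSG00000022797.15, chr16:32608920-32632794) encodes the transferrin receptor, through which cells take up iron-loaded transferrin. It was spread widely in warm control mice, from 158 over 444 to 709 CPM, and narrowly in the cold ones, at 152, 107, 128, 122 and 112 CPM. Warm replicates 4 and 7, at 208 and 158 CPM, came nearest to the cold mice without reaching them. The log2 fold change was -1.82 (SE 0.28, adjusted p = 2.212e-06, edgeR), and the mean dropped from 438 ± 207 to 124 ± 17.6 CPM. Mice labelled FAKO had 267 to 513 CPM of Tfrc (median 439.5) when warm and 110.2 to 165 CPM (median 124) when cold, with no overlap, and Tfrc changed by -1.49 on the log2 scale (SE 0.24, adjusted p = 5.084e-06, edgeR). This is the gene with 4 hairpin patterns in its 3′ UTR.

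Slc11a2 (ENSMUSG00000023030.16, chr15:100387898-100425072) encodes DMT1, the transporter that moves ferrous iron out of endosomes. Warm control mice had 31.1 to 47.1 CPM (median 44.8) and the cold ones 33.7, 30.2, 25.8, 26.5 and 36.3 CPM. Cold replicates 16 and 21 lay within the warm range. The log2 fold change was -0.43 (SE 0.11, adjusted p = 0.00138, edgeR). The ranges of mice labelled FAKO, 37.7 to 54.4 CPM and 26.0 to 33.2 CPM, were apart, and Slc11a2 changed there by -0.57 on the log2 scale (SE 0.10, adjusted p = 1.468e-05, edgeR).

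Steap4 (ENSMUSG00000012428.9, chr5:7960457-7982213) encodes a metalloreductase that reduces iron and copper and is abundant in fat. Warm control mice had 234 to 365 CPM (median 337) and the cold ones 173, 229, 170.4, 162 and 268 CPM. The lowest warm mouse lay within the cold range. The log2 fold change was -0.67 (SE 0.27, adjusted p = 0.0323, edgeR), and the call was lost without warm replicate 4 (adjusted p = 0.0516) or without cold replicate 16, 18 or 19 (0.0702, 0.0722 and 0.0780). With the FAKO label warm values were 267 to 424 CPM (median 312) and cold ones 113 to 591 CPM (median 227). Cold replicate 27, at 591 CPM, was above every warm mouse, and the other 6 were at 274 CPM or below. The log2 fold change was -0.39 (SE 0.24, adjusted p = 0.161, edgeR). It was -0.77 (adjusted p = 0.000477) without replicate 27.

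The ferritin chains parted. Ftl1 (ENSMUSG00000050708.16, chr7:45457944-45459884), the light chain, ranged from 188 over 198 to 249 CPM in warm control mice and had 422, 378, 342, 471 and 494 CPM after cold. Every cold mouse was above every warm one, and the rise was 2.05-fold (log2 fold change 1.04, SE 0.11, adjusted p = 8.563e-09, edgeR). Warm mice labelled FAKO had 173 to 201 CPM (median 190.1) and cold ones 283 to 546 CPM (median 391), a rise of 1.13 on the log2 scale (SE 0.11, adjusted p = 3.672e-10, edgeR).

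Fth1 (ENSMUSG00000024661.6, chr19:9980598-9985098), the heavy chain that oxidises iron for storage, ranged from 569.97 over 608 to 693 CPM in warm control mice. The cold ones had 552, 615, 589.9, 551 and 657 CPM, inside or just below that range. The log2 fold change was -0.04 with a 95% interval from -0.19 to 0.11 (adjusted p = 0.622, edgeR). Under the FAKO label the ranges of 477 to 586 CPM and 579 to 739 CPM overlapped, and Fth1 rose by 0.30 on the log2 scale (SE 0.07, adjusted p = 0.000206, edgeR), a direction that turned to -0.02 with scaling by library size alone, where the median of all genes tested moved from -0.03 to -0.34. The ratio of Ftl1 to Fth1 counts was 0.339 ± 0.0480 in warm and 0.713 ± 0.114 in cold control mice, and 0.357 ± 0.0313 and 0.645 ± 0.182 under the FAKO label. The 2 mRNAs carry near-identical hairpin letters in their 5′ UTRs, shown above. Ferritin has many processed copies, and their counts came to 0.102% of those of Fth1 and 0.268% of those of Ftl1. Adding them to the parent genes changed no call, and how reads that fit parent and copy equally were counted is not given in the sources used here.

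Slc40a1 (ENSMUSG00000025993.10, chr1:45908068-45926523), which fell with cold, encodes ferroportin, the iron exporter of the cell surface. Warm control mice had 22.8 to 55.7 CPM (median 42.6) and the cold ones 16.8, 15.05, 22.5, 16.9 and 18.7 CPM. The groups all but met, since warm replicate 7 was at 22.8 CPM and the next warm mouse at 38.0 CPM. The log2 fold change was -1.23 (SE 0.18, adjusted p = 1.83e-06, edgeR). Mice labelled FAKO had 29.4 to 47.8 CPM (median 41.5) when warm and 13.7 to 26.9 CPM (median 17.7) when cold, with no overlap and a change of -1.04 on the log2 scale (SE 0.16, adjusted p = 3.275e-06, edgeR).

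**Figure D2:**
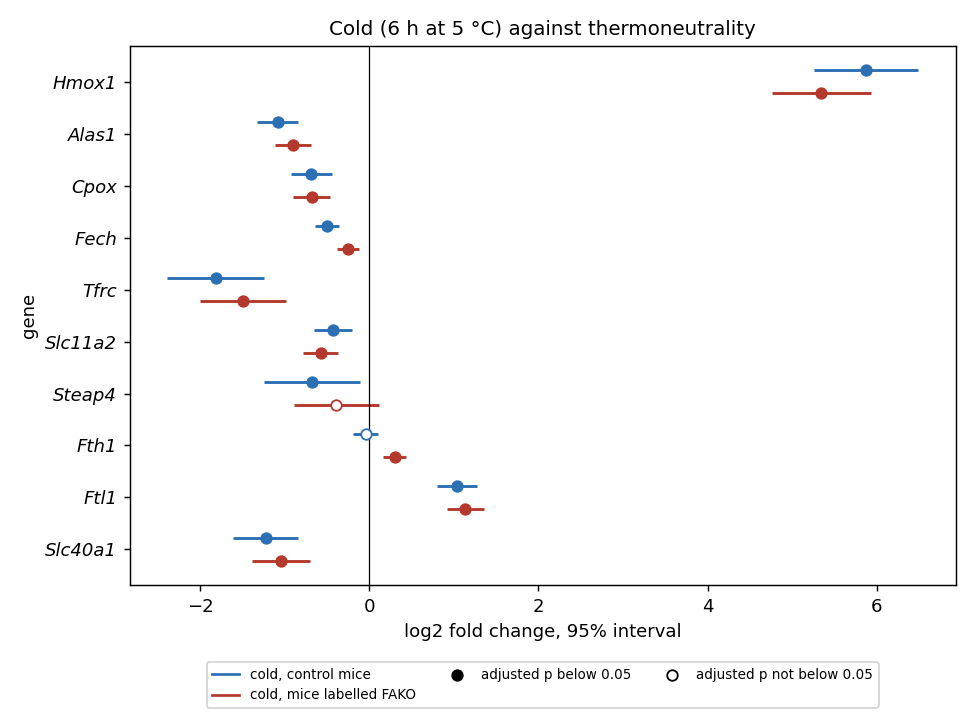
Log2 fold change for cold against thermoneutrality of the 10 genes in control mice (blue) and mice labelled FAKO (red), with 95% intervals; filled points passed the test. Hmox1 stands at 5.87 and 5.34, Ftl1 at 1.04 and 1.13, and the open points are Fth1 in control mice and Steap4 in mice labelled FAKO.

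Warm control replicate 7, the library with the low mitochondrial share, was the lowest of its group for Tfrc, Alas1, Cpox, Slc40a1 and Fth1 and the highest for Ftl1, Fech and Slc11a2. It also had the highest sums of red blood cell (1124 CPM) and skeletal muscle markers (5280 CPM) in its group. The next mice had 489 and 1368.5 CPM. Its macrophage marker sum (347 CPM) was the highest and its endothelial sum (454 CPM) the lowest. Without replicate 7 the log2 fold changes for cold in control mice were -1.98 for Tfrc, -1.15 for Alas1, -0.76 for Cpox, -1.36 for Slc40a1 and 1.06 for Ftl1, and no call of the 10 genes changed. Cold replicate 24 of the mice labelled FAKO was the lowest of its group for Hmox1 (120.4 CPM), Ftl1 (283 CPM) and Cpox (2.77 CPM) and the highest for Slc40a1 (26.9 CPM). Leaving out any 1 mouse gave log2 fold changes for Hmox1 between 5.71 and 5.97 in control mice and between 5.14 and 5.50 in mice labelled FAKO.

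Per kb of exon, the 10 genes had a steep order. In warm control mice Fth1 came first at 176 ± 12.8 CPM per kb, then Ftl1 at 153 ± 15.2, Steap4 at 101 ± 13.9, Alas1 at 82.8 ± 10.4 and Tfrc at 70.8 ± 33.4. Slc11a2 at 6.45 ± 0.99, Hmox1 at 5.28 ± 0.64, Fech at 5.21 ± 0.42 and Slc40a1 at 4.69 ± 1.14 CPM per kb followed far below, and Cpox was last at 0.89 ± 0.11. Fth1 and Ftl1 overlapped, as did the neighbours from Steap4 to Tfrc and from Slc11a2 to Slc40a1. After cold, Ftl1 led in control mice at 314 ± 47.3 CPM per kb, followed by Hmox1 at 309 ± 81.8, which overlapped it, and by Fth1 at 171 ± 12.9. The order of the other 7 genes was that of the warm mice. In cold mice labelled FAKO the order was the same, with Ftl1 at 309 ± 64.9, Hmox1 at 241 ± 109 and Fth1 at 189 ± 19.7 CPM per kb, which overlapped. Exon lengths were those of all annotated exons together, so genes with long or rarely used exons come out low.

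**Figure D3:**
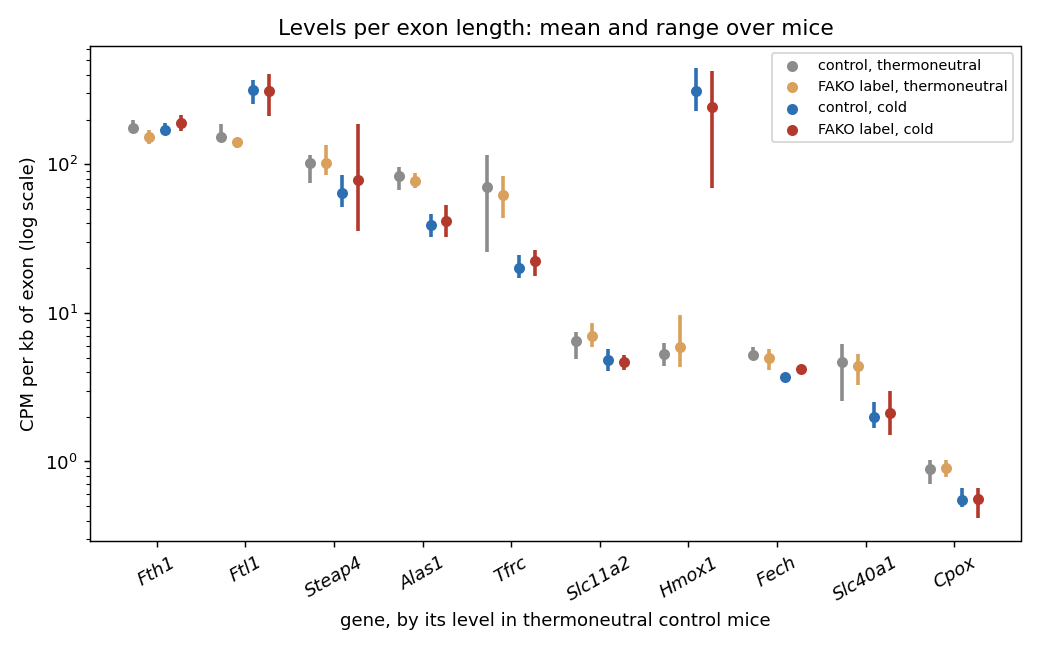
Level of each gene as CPM per kb of exon on a log axis, with the mean (point) and the range over mice (line) of the 4 groups, genes ordered by warm control mice. Hmox1 moves from the level of Fech to that of Ftl1 with cold, while the order of the genes that fell is kept.

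The comparisons by genotype ask whether the Afadin deletion altered these genes. For the FAKO label against control, 0 of 10 genes passed the test at thermoneutrality (0.081% of all genes tested did) and 0 of 10 after cold (0.139%), by edgeR. An unadjusted p below 0.05 was seen for 1 gene in each, Fth1 at thermoneutrality and Fech after cold. Of all genes tested, 7.65% and 13.4% had one. DESeq2 called 0 of 10 in both, beside 48 of 14605 and 197 of 12929 genes for which it gave an adjusted p. For the difference between the cold responses of the genotypes, 0 of 10 passed (1.16% of all genes tested), with an unadjusted p below 0.05 for 2 genes, Fth1 and Fech, and for 16.2% of all genes tested. These comparisons share samples with one another and are not independent.

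Fth1 had the nearest miss. At thermoneutrality its mean was 610.5 ± 44.5 CPM in controls and 531 ± 37.1 CPM under the FAKO label, a log2 difference of -0.20 (95% interval -0.34 to -0.06, adjusted p = 0.409, edgeR). After cold the means were 593 ± 44.9 CPM and 656 ± 68.3 CPM, a log2 difference of 0.15 (95% interval -0.0037 to 0.30, adjusted p = 0.38, edgeR). The difference of the cold responses was 0.35 (95% interval 0.14 to 0.55, adjusted p = 0.0743, edgeR). DESeq2 gave 0.36 with an adjusted p of 0.0146. Leaving out cold replicate 22 of the mice labelled FAKO gave 0.37 with an adjusted p of 0.0436 in edgeR. Whether the difference passed thus depended on the tool and on leaving out 1 mouse. For this comparison DESeq2 called 488 of 14940 genes and edgeR 200 of 17286. With scaling by library size alone the difference was 0.14, where the median of all genes tested was -0.15.

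After cold the mean of Fech was 51.0 ± 2.48 CPM in controls and 57.8 ± 2.88 CPM under the FAKO label, a log2 difference of 0.18 (95% interval 0.04 to 0.32, adjusted p = 0.255, edgeR). Its cold responses differed by 0.25 (95% interval 0.05 to 0.44, adjusted p = 0.181, edgeR). For Hmox1 the log2 difference after cold was -0.36 (95% interval -0.88 to 0.17, adjusted p = 0.558, edgeR), and the cold responses differed by -0.53 (95% interval -1.27 to 0.21). Intervals of this width leave room for a difference of the cold response of Hmox1, Tfrc (-0.41 to 1.05) and Steap4 (-0.47 to 1.04) that these mice could not resolve. They were narrower for Alas1 (-0.14 to 0.50), Cpox (-0.32 to 0.33), Slc11a2 (-0.45 to 0.16), Ftl1 (-0.22 to 0.42) and Slc40a1 (-0.32 to 0.69).

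**Figure D4:**
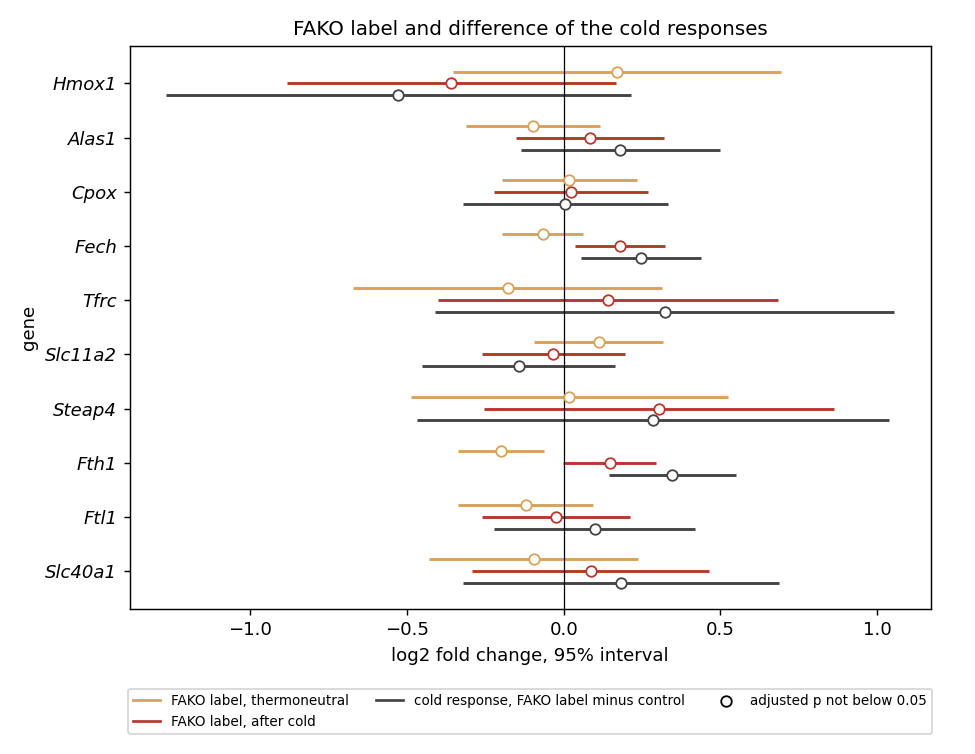
Log2 differences of the 10 genes, FAKO label against control, at thermoneutrality (orange) and after cold (red), and the difference of their cold responses (dark), with 95% intervals. No point passed the test; the difference of the cold responses of Fth1, at 0.35, lies farthest from 0 relative to its interval.

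Around these genes, 68 other genes of the same pathways were listed and 63 of them tested. In control mice 22 rose with cold, 22 fell and 19 did not pass, with a median log2 fold change of 0.07 beside -0.01 over all genes tested. Under the FAKO label 28 rose, 20 fell and 15 did not pass, with a median of 0.21 beside -0.03. Of all genes tested, 31.6% were called higher and 33.4% lower in control mice, and 33.7% and 34.9% under the FAKO label. In edgeR 0 of the 63 passed the test for the FAKO label at thermoneutrality, after cold or for the difference of the cold responses, where 5, 11 and 13 had an unadjusted p below 0.05, beside 7.65%, 13.4% and 16.2% of all genes tested. DESeq2 called 0 at thermoneutrality, 1 after cold (Slc48a1) and 2 in the difference (Slc48a1 and Blvrb). Among all genes with an adjusted p it called 48 of 14605, 197 of 12929 and 488 of 14940.

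Among other enzymes of heme synthesis, Alad (log2 fold change -1.39 in control mice), Ppox (-0.79) and Urod (-0.56) fell with cold. Alas2 (0.08), the erythroid counterpart of Alas1, and Uros (0.06) did not pass. Under the FAKO label Alas2 rose by 0.99 on the log2 scale (SE 0.27, adjusted p = 0.00213, edgeR), as did other red blood cell markers given below. Of the 7 accessory genes of heme synthesis, Abcb10 (-0.95), Abcb6 (-0.73) and Tmem14c (-0.29) fell and Slc25a39 (0.75), a mitochondrial carrier, rose.

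Beside Hmox1, 8 genes of heme breakdown and transport were tested. Hpx, which encodes the heme scavenger hemopexin, was at 0.257 ± 0.196 CPM, a few reads per library, in warm and at 36.5 ± 10.8 CPM in cold control mice, 7.17 higher on the log2 scale (SE 0.49, adjusted p = 1.089e-12, edgeR). The other called genes fell. They were Slc46a1 (-1.18), Flvcr1 (-0.997) and Slc48a1 (-0.91), listed here for heme transport, Blvrb (-0.64) and Blvra (-0.60), which reduce biliverdin, and Abcg2 (-0.27). The constitutive heme oxygenase Hmox2 was at -0.17 and did not pass (adjusted p = 0.107, edgeR).

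Of the 7 other uptake genes tested, Slc39a14 rose most, from 23.6 ± 2.12 to 207 ± 34.3 CPM in control mice (log2 fold change 3.13, SE 0.17, adjusted p = 2.091e-14, edgeR). Its product ZIP14 takes up iron that is not bound to transferrin, besides zinc and manganese. Steap2 (1.30) rose, Steap3 (-1.17) and Slc39a8 (-0.67) fell, and Tfr2, Trf and Scara5 did not pass. The 3 other storage genes tested rose: Ncoa4 (1.27), the receptor that brings ferritin to the lysosome, and the iron chaperones Pcbp1 (0.66) and Pcbp2 (0.21). Of 5 other export genes, Heph (-1.18), a ferroxidase that works with ferroportin, fell and Cp (0.37, adjusted p = 0.0470, edgeR), the ferroxidase of plasma, rose.

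Of 17 genes of mitochondrial iron and iron-sulfur clusters tested, 9 rose and 4 fell in control mice, with a median of 0.24. The shares of all genes tested were 31.6% higher and 33.4% lower. Iba57 (1.23) and Hspa9 (0.96) rose and Hscb (-1.21) fell. Of the 10 regulators, Ppargc1a (4.07), the thermogenic coactivator, Hif1a (0.996), Ireb2 (0.40), which encodes an iron regulatory protein, and Bach1 (0.22), which represses Hmox1 until heme binds it, rose. Nr1d1 (-1.32), a heme-binding repressor of the clock, Aco1 (-0.93), which encodes the other iron regulatory protein, and Epas1 (-0.51) fell. Nfe2l2, an activator of Hmox1, was at 0.22 and did not pass (adjusted p = 0.122, edgeR).

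**Figure D5:**
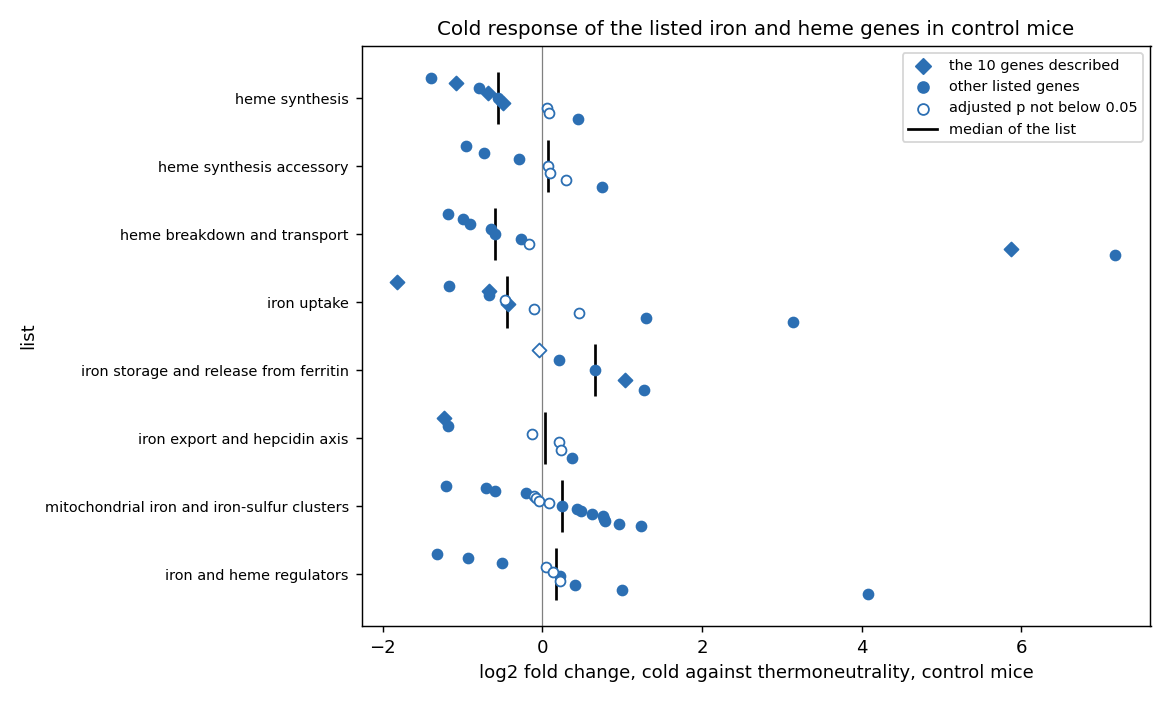
Log2 fold change with cold in control mice of the 73 tested genes of 8 lists; diamonds are the 10 genes described, circles are the other listed genes, open symbols did not pass the test and bars are list medians. Hmox1 and Hpx stand alone at 5.87 and 7.17 in a list with a median of -0.60, and Slc39a14 at 3.13 stands opposite Tfrc at -1.82 among the uptake genes.

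Heme oxygenase, ferroportin and ferritin are also abundant in macrophages. Macrophage markers (11 of 11 found, none at 0 in a group) summed to 236 to 347 CPM in warm and 275 to 354 CPM in cold control mice, and to 237 to 291 CPM and 299 to 420.4 CPM in mice labelled FAKO. In control mice 3 of the 10 macrophage markers tested were called higher and 4 lower with cold, and under the FAKO label 5 higher and 2 lower. The shares of all genes tested were 31.6% higher and 33.4% lower in control mice, and 33.7% and 34.9% under the FAKO label. Red blood cell markers (8 of 9 found) summed to 234 to 1124 CPM and 418 to 686 CPM in control mice, and to 291 to 611 CPM and 519 to 1501 CPM in mice labelled FAKO. The 1124 CPM was that of warm control replicate 7, and the next mouse of its group had 489 CPM. With cold 0 of these 8 were called in control mice (edgeR and DESeq2; 1 had an unadjusted p below 0.05), with a median log2 fold change of 0.06, and under the FAKO label 7 were called higher and Epb42 lower, with a median of 1.16. For the FAKO label after cold and for the difference of the cold responses 0 of 8 were called by edgeR or DESeq2. DESeq2 gave no adjusted p for 3 of the 8 after cold and for 2 in the difference. In edgeR 6 and 5 had an unadjusted p below 0.05, and the medians of the 8 were 0.93 and 1.18. Endothelial markers (5 of 5) went from 454 to 605 CPM to 721 to 828.5 CPM in control mice and from 529 to 686 CPM to 622 to 839.95 CPM in mice labelled FAKO. In both genotypes Pecam1, Cdh5 and Kdr rose and Tie1 and Tek fell. Skeletal muscle markers (6 of 6) ran from 1.20 to 7126 CPM and were spread within every group. The part of these cells in the values of the 10 genes was not tested.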

How the data were processed

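The authors used STAR v2.5.2b to place 100-base reads of rRNA-depleted stranded total RNA libraries on mm10, and deposited raw counts per gene from featureCounts v1.5.2 with GENCODE M13; whether counting used strand is not given in the sources used here. Of 50686 genes listed, 50462 were named through GENCODE M21 by Ensembl identifier. The deposited counts of all 26 libraries were fitted together in edgeR 4.0.16 (R 4.3.3; 1 mean per group, TMM factors, filterByExpr, quasi-likelihood test), with Benjamini-Hochberg adjustment over 17286 genes and a threshold of 0.05. CPM used TMM-scaled library sizes. The SE was the log2 fold change divided by the square root of F, and 95% intervals used 22 residual degrees of freedom. The fit was tested on simulated data with 200 changed genes. The 10 genes, the 8 pathway lists and 5 marker lists were chosen with earlier results of these data known. All 10 were named. From each list, the 3 other genes with the largest change in cold control mice among those called and at 1 CPM or more on average were named, and other names were chosen after their values were seen. Of the listed symbols, Fdx2, Hjv and Tf were matched as Fdx1l, Hfe2 and Trf, and Ahsp was not matched. Alternatives were DESeq2 1.42.0, scaling by library size alone or upper quartile, filters of at least 1 count and of 10 counts in every mouse, edgeR's revised method, fits of only the groups compared, ferritin copies added and each mouse left out.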

Additional observations from a re-analysis of the deposited data

Results flagged for a closer look

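Of 40 groups of mice and genes checked for a mouse far from the others of its group, 3 were found, and chance gives about 1 in 20. Hmox1 was at 17.046 CPM in thermoneutral replicate 13 of the mice labelled FAKO, where the next mouse had 10.906 CPM. Steap4 was at 591.13 CPM in cold replicate 27 of the mice labelled FAKO, where the next had 273.88 CPM. Ftl1 was at 248.97 CPM in thermoneutral control replicate 7, where the next had 211.21 CPM.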

How the results depend on the processing

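Depth limited Cpox most, at 37 to 136 counts per library. Scaling by library size alone moved the median of all genes tested to -0.14 and -0.34 for cold in control mice and mice labelled FAKO, 0.13 and -0.03 for the FAKO label warm and cold, and -0.15 for the difference of the cold responses. It turned the direction of Fth1 for cold in mice labelled FAKO (-0.021), of Alas1 (0.054), Fech (0.070), Ftl1 (0.015) and Slc40a1 (0.086) for the label at thermoneutrality, of Cpox for the label after cold (-0.020), and of Alas1 (-0.023), Cpox (-0.20), Ftl1 (-0.071) and Slc40a1 (-0.071) for the difference; apart from Fth1, none of these was called. The difference for Cpox was also -0.044 with upper-quartile factors and -0.013 with at least 10 counts in every mouse. Steap4 in mice labelled FAKO passed the test with library size alone (-0.72) and upper-quartile factors (-0.56). DESeq2 called 1 gene, Fth1, in the difference; leaving out each mouse gave 0 to 1. Leaving out each mouse also turned uncalled directions: for the label at thermoneutrality Cpox (-0.017 to 0.054) and Steap4 (-0.045 to 0.064); after cold Cpox (-0.020 to 0.097), Slc11a2 (-0.089 to 0.037), Steap4 (-0.076 to 0.43), Ftl1 (-0.10 to 0.051) and Slc40a1 (-0.013 to 0.18); and for the difference Cpox (-0.038 to 0.081) and Steap4 (-0.094 to 0.41). The cause was not tested. No paired analysis was possible because the groups share no replicate numbers.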
